A study of Mus musculus with 18 samples.

Results

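Vehicle-treated AML12 cells harvested at T24 were compared with vehicle-treated AML12 cells harvested at T20. AML12 is a mouse hepatocyte line that came from a mouse carrying a transgene for human transforming growth factor alpha, and the cells had been synchronized for their circadian phase before the experiment, by a method not given in the sources used here. The T24 group received DMSO, the solvent of the drug, at T0 and was harvested 24 h later (3 libraries). The T20 group received DMSO at T14 and was harvested 6 h later (3 libraries). These 6 of the series' 18 libraries were chosen by their labels alone. Replicate numbers, shared by the labels of both groups, were used as pairs. Further groups used for comparison were cells given pemafibrate, a selective PPAR alpha modulator, over the same windows (T24 and T20, 3 libraries each) and DMSO cells given vehicle at T24 and harvested at T30 after 6 h (3 libraries). Harvest time, length of DMSO exposure, time of DMSO addition and the table in which the values were normalized all differed together between the groups, so that they cannot be told apart. No label states whether the replicates were grown as separate cultures. With replicate number in the fit, the p-values describe how the differences within pairs vary from pair to pair, which may be technical. They leave out the spread between replicate numbers.

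Values were normalized signal, with totals of 31461977 to 33278987 per library at T24 and 32268547 to 33884634 at T20. Mitochondrially encoded transcripts made up 2.78% to 3.11% of the signal at T24 and 2.48% to 2.82% at T20. Of 30 hepatocyte markers, 22 had a mean of at least 10 in each group, among them Alb with 6314, 3479 and 3124 at T24 and 6690, 3887 and 3146 at T20, whereas Apoa2, Apoc3, Fgg, Cps1 and Asgr1 were below 10 in all 6 libraries. The cholangiocyte markers summed to 58899 to 82779 at T24 and 55501 to 76664 at T20, with Epcam below 10 in all 6 libraries. Stellate cell and fibroblast markers summed to 113 to 167 at T24 and 136 to 179 at T20, and endothelial markers to 36.0 to 68.5 at T24 and 39.7 to 69.9 at T20. Macrophage and leukocyte markers summed to 5084 to 6246 at T24 and 3828 to 5313 at T20, with Adgre1, Clec4f, Itgam and Cd3e below 10 in all 6 libraries. In bulk RNA, fewer cells of a type and less RNA per cell cannot be told apart.

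The circadian clock of mammalian cells is a feedback loop of transcription. ARNTL (BMAL1) and CLOCK bind E-boxes and activate the Per and Cry genes, whose proteins inhibit them, while the REV-ERB receptors (Nr1d1, Nr1d2) repress and the ROR receptors activate Arntl through a shared element. The PAR bZIP factors DBP, TEF and HLF act through D-boxes and carry the rhythm to output genes, many of them metabolic in liver. The promoters of Per3, Cry1 and Tef are shown as examples. These genes had positive differences in all 3 pairs, and each carries a D-box or an E-box in the 250 bases before its start. Other clock genes, among them Per1 and Klf11, met the same description and are not shown. They are RefSeq sequences of build GRCm38.p6, written 5′ to 3′ on the gene's strand, with D-box or E-box letters in capitals. Per3 lies on the minus strand at chr4:151044666-151044915, Cry1 on the minus strand at chr10:85185055-85185304, and the first of 2 Tef starts on the plus strand at chr15:81802423-81802672.
Per3: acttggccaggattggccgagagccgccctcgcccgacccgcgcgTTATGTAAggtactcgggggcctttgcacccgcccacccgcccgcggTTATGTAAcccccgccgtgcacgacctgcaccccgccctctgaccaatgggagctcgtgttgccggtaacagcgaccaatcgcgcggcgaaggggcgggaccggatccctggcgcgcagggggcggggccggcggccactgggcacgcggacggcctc
Cry1: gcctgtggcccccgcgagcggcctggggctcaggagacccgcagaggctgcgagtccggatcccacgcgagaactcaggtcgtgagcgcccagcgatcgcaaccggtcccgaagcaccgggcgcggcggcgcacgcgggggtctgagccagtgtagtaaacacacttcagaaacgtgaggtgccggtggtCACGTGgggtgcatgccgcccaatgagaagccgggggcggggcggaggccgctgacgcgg
Tef: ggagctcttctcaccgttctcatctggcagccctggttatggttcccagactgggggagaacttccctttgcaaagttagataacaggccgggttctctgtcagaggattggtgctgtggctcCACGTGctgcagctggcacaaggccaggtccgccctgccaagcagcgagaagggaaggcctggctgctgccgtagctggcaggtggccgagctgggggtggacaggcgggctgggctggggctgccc

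The first bases of the 2 D-boxes of Per3 lay 205 and 158 bases before its start, the E-box of Cry1 lay 60 bases before and that of Tef 127 bases before. Letters searched on both strands were CACGTG for the E-box, TTATGTAA, TTACATAA and TTACGTAA for the D-box, TAGGTCA and TGACCTA for the element shared by ROR and REV-ERB receptors, and TGACGTCA for the cyclic AMP response element. Of 35 clock genes measured, 28 had a promoter in the RefSeq table. Of these, 9 held an E-box, 2 a D-box, 1 the ROR and REV-ERB element and 0 the cyclic AMP response element in at least 1 start. Among all 32851 promoters of the same length, 6.02% held the E-box, 0.931% the D-box, 2.23% the ROR and REV-ERB element and 1.55% the cyclic AMP response element. These shares are per promoter, whereas the clock counts are per gene over 38 starts. A gene with several starts had more chances of a match, so the units differ. A match is a description of letters only.

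Across the whole table, 1 gene was higher and 2 were lower at T24 than at T20 at an adjusted p under 0.05 (limma on log2 of the signal plus 1, centred on the median difference, with replicate number as a block, Benjamini-Hochberg over 13279 genes). These are 0.00753% and 0.0151% of the genes tested. At an unadjusted p under 0.05, 925 genes (6.97%) were higher and 786 (5.92%) lower. The gene that rose was Per2, a repressor of the clock. Its signal was 1839, 1216 and 985 in replicates 1 to 3 at T24 and 1176, 770 and 610 at T20. Each T24 library exceeded the T20 library of its own number, while the groups overlapped, since replicate 3 at T24 was below replicate 1 at T20. The log2 difference was 0.69 ± 0.06 (SE, n = 3 pairs; adjusted p = 0.0468, limma), and the pairs were 0.67, 0.68 and 0.71. The call was lost with no replicate block (adjusted p = 0.999, limma), without replicate 2 (adjusted p = 0.468) and without replicate 3 (adjusted p = 0.382).

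The 2 genes that fell were the predicted genes Gm5537 and Gm2223, which may share reads with near-identical copies, so their values are uncertain. Gm5537 was listed at 0 in all 3 T24 libraries and had 186, 452 and 544 at T20 (adjusted p = 0.00131, limma). In the pemafibrate libraries it was listed at 0 in all 3 at T24 and had 0, 0 and 870 at T20, and the DMSO libraries at T30 had 413, 0 and 0. Gm2223 was listed at 0 in all 3 T24 libraries and had 135, 142 and 362 at T20 (adjusted p = 0.00246, limma). In pemafibrate cells Gm2223 had 110, 204 and 0 at T24 and 167, 169 and 320 at T20. Both calls were lost without replicate 2 (adjusted p = 0.078 for each, limma), with no filter (adjusted p = 0.127 for each), with no variance trend (adjusted p = 0.143 for each) and when all 9 DMSO libraries shared the spread (adjusted p = 0.171 for Gm5537 and 0.164 for Gm2223). For both genes, libraries of the same harvest and treatment thus included a listed 0 beside values over 100 in at least 1 group.

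Among the clock repressors, 9 of 10 genes had positive differences, with a median of 0.34, beside a median of 0 over all genes tested, of which 50% were higher. In 3 of 3 pairs, 8 of the 10 were higher, beside 18.1% of all genes, and 8 had an unadjusted p under 0.05. Only Per2 passed the adjusted test. Per3, a period gene, had 1117, 803 and 608 at T24 and 788, 554 and 406 at T20, a log2 difference of 0.56 ± 0.07 (SE, n = 3 pairs; adjusted p = 0.158, limma). Every pair was higher at T24, by 0.53, 0.56 and 0.60, although the groups overlapped. Per1, which also responds acutely to hormones and serum, had 968, 719 and 571 at T24 and 814, 553 and 395 at T20, a log2 difference of 0.41 ± 0.08 (SE, n = 3 pairs; adjusted p = 0.212, limma).

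Cry1, a cryptochrome that represses CLOCK and ARNTL, had 377, 378 and 457 at T24 and 308, 304 and 270 at T20. All T24 libraries were above all T20 libraries, as for 3.1% of the genes tested. The log2 difference was 0.48 ± 0.12 (SE, n = 3 pairs; adjusted p = 0.243, limma), with 0.78 in pair 3 and 0.31 and 0.34 in pairs 1 and 2. Cry2 had a log2 difference of 0.25 and the basic helix-loop-helix repressors Bhlhe40 and Bhlhe41 of 0.33 and 0.35. Nr1d2 stood at 0.19, and Ciart, a low gene at 33.0 to 49.8 at T24 and 32.7 to 35.4 at T20, at 0.26 ± 0.24 (SE).

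Nr1d1, which encodes REV-ERB alpha, was the one repressor with a negative difference. It had 1911, 1580 and 1864 at T24 and 2203, 1679 and 1973 at T20, and its log2 difference was -0.10 ± 0.06 (SE, n = 3 pairs; adjusted p = 0.499, limma). Its 95% interval was -0.24 to 0.03. The groups overlapped, while every pair was lower at T24, by differences of -0.18, -0.07 and -0.06. Nr1d1 and Nr1d2 thus had differences of opposite sign, and the gap between them was not tested.

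Arntl, the activator that REV-ERB receptors repress, had 194, 264 and 290 at T24 and 297, 376 and 386 at T20. All 3 T24 libraries were below all 3 T20 libraries, as for 3.04% of the genes tested. The log2 difference was -0.49 ± 0.10 (SE, n = 3 pairs; adjusted p = 0.212, limma), and the pairs were -0.59, -0.49 and -0.39. Its partner Clock had 2932, 2318 and 2897 at T24 and 3032, 2480 and 3268 at T20, a log2 difference of -0.08. Rora, a ROR receptor, differed by 0.08, with pair 2 in the opposite direction to pairs 1 and 3. Npas2 had a mean below 10 and was not tested, and the 6 activators that were tested had a median of 0.04, which was -0.05 without replicate 1, 0.16 without replicate 2 and -0.02 without replicate 3.

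**Figure D1:**
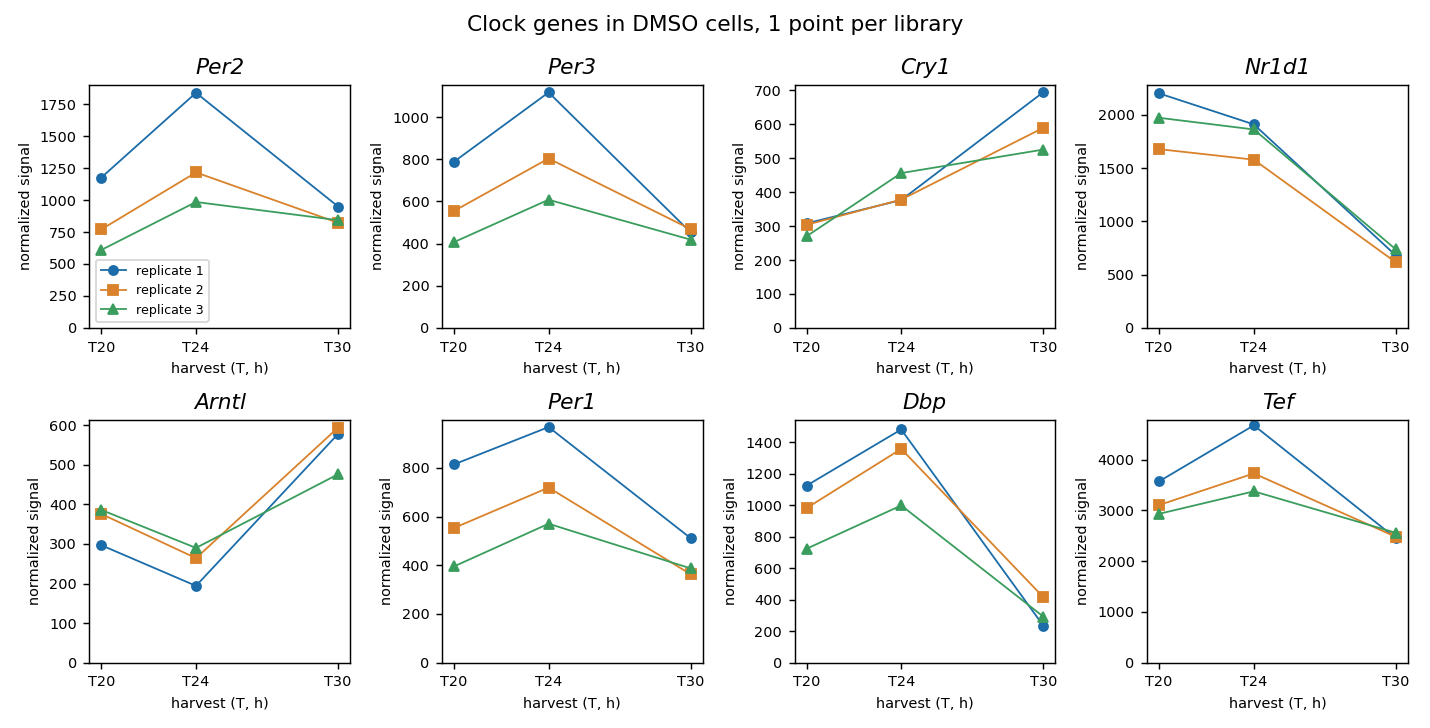
Normalized signal (y axis, from 0) of 8 clock genes in DMSO cells by harvest (x axis), 1 point per library, with lines joining libraries of the same replicate number. Per2, Per3, Dbp and Tef were highest at T24 in every replicate, and Arntl was lowest at T24 in every replicate. Exposure to DMSO was 24 h for T24 and 6 h for T20 and T30.

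Of the PAR bZIP factors and clock outputs, 13 of the 19 tested had positive and 6 negative differences, with a median of 0.12, and of 0.08 without replicate 1. In 3 of 3 pairs, 7 were higher and 3 lower, beside 18.1% and 18.5% of all genes. Dbp, a PAR bZIP activator driven by CLOCK and ARNTL, had 1482, 1358 and 999 at T24 and 1125, 982 and 724 at T20. The groups overlapped, while every pair was higher, by 0.42, 0.49 and 0.49, and the log2 difference was 0.47 ± 0.06 (SE, n = 3 pairs; adjusted p = 0.191, limma). Tef, a PAR bZIP factor too, had 4674, 3727 and 3374 at T24 and 3571, 3104 and 2931 at T20, a log2 difference of 0.31 ± 0.06 (SE, n = 3 pairs; adjusted p = 0.202, limma). Wee1, a cell cycle kinase gene under clock control, differed by 0.31, the tetraspanin Tspan4 by 0.33 and the Krüppel-like factor Klf11 by 0.33. On the negative side were Alas1, the rate-limiting enzyme of heme synthesis, at -0.21, Klf10, a Krüppel-like factor, at -0.17, and Nampt, an enzyme of NAD synthesis, at -0.12, each lower in 3 of 3 pairs. Nfil3, a repressor at D-boxes, had -0.13 with pair 2 positive. Hlf, Gys2 and Elovl3 had means below 10 and were not tested. The 9 genes of clock protein turnover had a median of 0.04, and of 0.07 without replicate 3.

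The pemafibrate libraries of the same windows gave 0 calls among 13253 genes at an adjusted p under 0.05 (limma), with 1148 higher (8.66%) and 933 lower (7.04%) at an unadjusted p under 0.05. They share no library with the DMSO groups, but they share the deposited tables and the replicate numbers. Per2 had a log2 difference of 0.73 ± 0.07 in pemafibrate cells (SE, n = 3 pairs; adjusted p = 0.0516, limma) and 0.69 ± 0.06 in DMSO cells. Dbp differed by 0.57 in pemafibrate cells and 0.47 in DMSO cells, Cry1 by 0.52 in pemafibrate cells and 0.48 in DMSO cells, and Nr1d1 by -0.09 in pemafibrate cells and -0.10 in DMSO cells. Per1 differed by 0.79 in pemafibrate cells, with 1.39 in pair 2, and by 0.41 in DMSO cells. Arntl differed by -0.30 in pemafibrate cells and -0.49 in DMSO cells. The test of the difference between the treatments called 0 of 13267 genes, with 409 (3.08%) at an unadjusted p under 0.05 (limma, harvest by treatment interaction). For Arntl that difference was 0.19 ± 0.12 (SE, n = 3 pairs per treatment, adjusted p = 0.999, limma). Of the 13267 genes, 663 would pass the unadjusted cut by chance, more than the 409 seen. The fit blocked on replicate number only, although harvest differences within a replicate number were correlated across treatments (Spearman's rho of 0.390 to 0.539). The test may thus be too strict, and its 0 calls do not show that the treatments had equal differences.

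**Figure D2:**
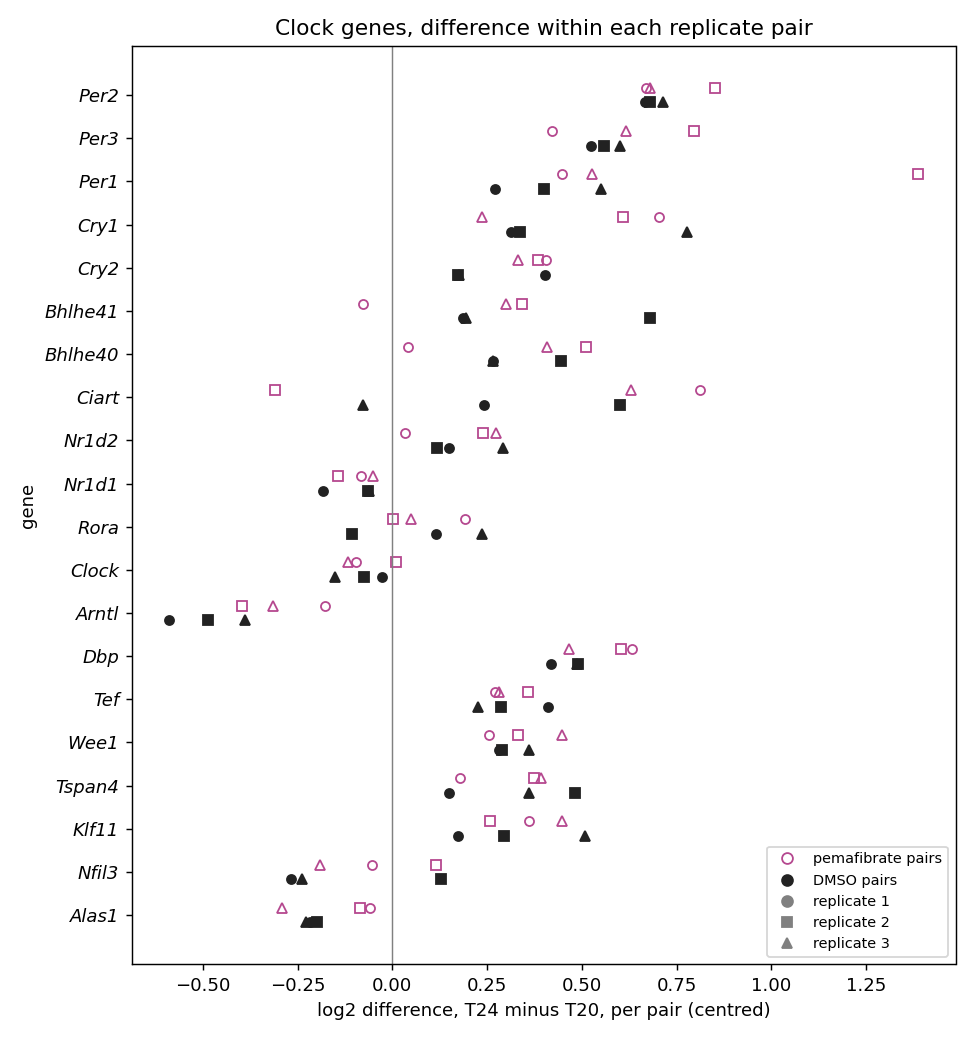
Centred log2 difference, T24 minus T20 (x axis), of 20 clock genes (y axis) in each replicate pair of pemafibrate cells (open symbols, above) and DMSO cells (filled symbols, below). Per2, Per3, Dbp and Tef were above 0 and Arntl below 0 in all 6 pairs.

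At T20, T24 and T30, DMSO cells had mean Dbp signals of 944, 1280 and 315 and mean Nr1d1 signals of 1952, 1785 and 677. Mean Arntl signals at T20, T24 and T30 were 353, 249 and 550, and mean Cry1 signals 294, 404 and 604. The T24 group also differed from the T20 and T30 groups in exposure, 24 h against 6 h.

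The 3 pairs were not alike. Over 10093 genes with a mean of at least 200, Spearman's rho between the differences of DMSO pairs was 0.0862 for pairs 1 and 2, 0.255 for pairs 1 and 3 and 0.349 for pairs 2 and 3, as a description across genes, which are not independent. Without replicate 1, 279 genes (2.11%) were higher and 158 (1.19%) lower at an adjusted p under 0.05 (limma, 2 pairs, 13239 genes). Without replicate 2 there were 0 DMSO calls (1332 genes at an unadjusted p under 0.05), and without replicate 3 there were 3 (limma). Leaving out replicate 1 in pemafibrate cells gave 261 higher (1.98%) and 122 lower (0.924%). In both treatments 257 genes were called, all in the same direction, which is 58.8% of the DMSO calls and 67.1% of the pemafibrate calls. Both sets of calls came from the same replicate numbers. Spearman's rho between DMSO and pemafibrate differences was 0.390, 0.539 and 0.485 for pairs 1, 2 and 3 of the same number. For different numbers it was 0.138 to 0.386. The shared calls are therefore not an independent repeat of the harvest difference.

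Genes of the immediate early response, which cells induce within minutes of serum or growth factors, showed the gap between pairs. Of 28 tested, 20 had positive differences, with a median of 0.19, but the median was -0.07 in pair 1, 0.32 in pair 2 and 0.29 in pair 3, and the median over the list was 0.10 without replicate 2. Egr1, an immediate early transcription factor, had 2924, 3615 and 1295 at T24 and 2402, 1222 and 718 at T20. Its log2 difference was 0.92 ± 0.20 (SE, n = 3 pairs; adjusted p = 0.221, limma), and 1.23 without replicate 1 (adjusted p = 0.000602, limma), 0.59 without replicate 2 (adjusted p = 0.468) and 0.94 without replicate 3 (adjusted p = 0.751). Ccn2, a matricellular growth factor gene, had 15834, 15092 and 15691 at T24 and 17187, 8325 and 8055 at T20. Replicate 1 at T20 was thus at the T24 level, and the other T20 libraries were well below it. The same order was seen in DMSO cells at T30, with 15297, 8179 and 7030. Pemafibrate cells at T20 had 16171, 8168 and 7887. The DMSO difference between T24 and T20 was 0.59 ± 0.19 (SE, n = 3 pairs, adjusted p = 0.289, limma). It was 0.93 without replicate 1 (adjusted p = 1.73e-05, limma), 0.45 without replicate 2 (adjusted p = 0.56) and 0.39 without replicate 3 (adjusted p = 0.818).

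Inflammatory and NF-kB targets had positive differences for 16 of 17 genes tested, with a median of 0.23 and medians by pair of -0.02, 0.31 and 0.36. The chemokine gene Cxcl1 had 4739, 6774 and 4875 at T24 and 4014, 4142 and 3128 at T20, a log2 difference of 0.55 ± 0.09 (SE, n = 3 pairs; adjusted p = 0.202, limma). All T24 libraries were above all T20 libraries. Icam1, an adhesion molecule, differed by 0.46 and the chemokine gene Ccl20 by 0.52. Acute phase and complement genes had 11 of 17 positive differences and a median of 0.20, and 13 of 20 with a median of 0.30 without replicate 1. Complement C4b had 6416, 4949 and 2319 at T24 and 4689, 3528 and 1476 at T20. Every pair was higher, by 0.47, 0.51 and 0.67, the groups overlapped, and the log2 difference was 0.55 ± 0.06 (SE, n = 3 pairs; adjusted p = 0.0888, limma). Cfb (0.40), C1s1 (0.33) and Saa3 (0.45) also had positive differences, while Orm1, an acute phase glycoprotein gene, had -0.58. The summed macrophage and leukocyte markers given above overlapped between T24 and T20. Of the 4 such markers tested, 1 had a positive and 3 a negative difference, with a median of -0.10, and their part in these values was not tested.

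**Figure D3:**
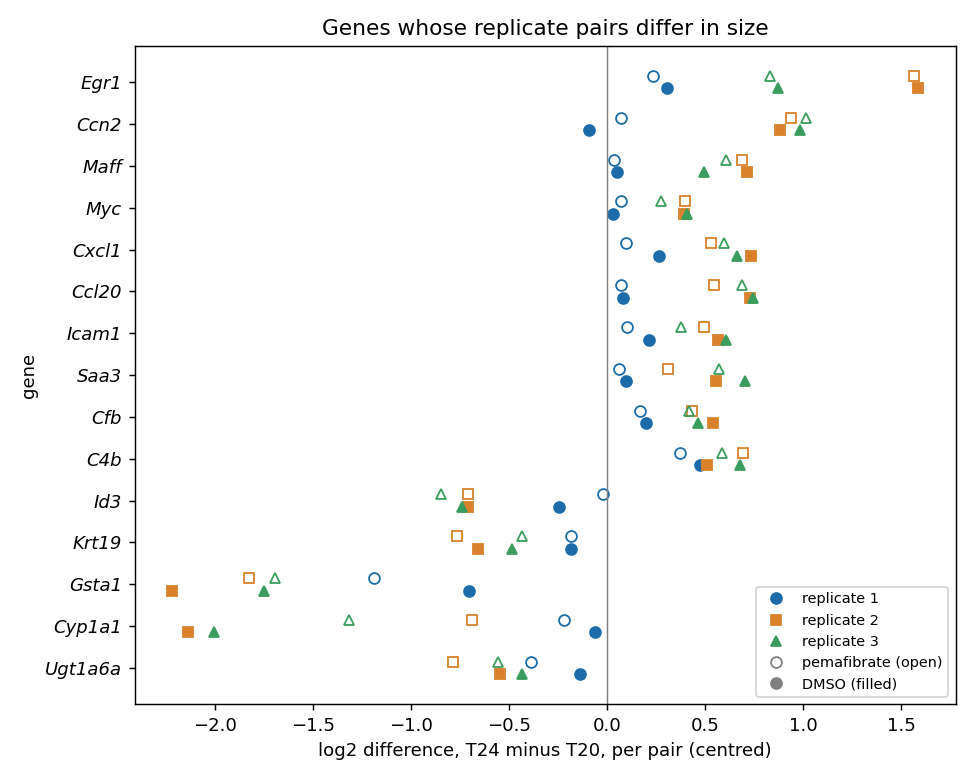
Centred log2 difference, T24 minus T20 (x axis), of 15 genes (y axis) in each pair of pemafibrate cells (open, above) and DMSO cells (filled, below). Replicate 1 lies nearer to 0 than replicates 2 and 3 for Ccn2, Ccl20 and Cyp1a1 in both treatments.

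Several lists had small differences that leaned one way, and no member of them passed the adjusted test with all 3 pairs. All 25 genes of cholesterol synthesis and uptake had negative differences, with a median of -0.12, and 16 of them were lower in 3 of 3 pairs, beside 18.5% of all genes. Mvk, mevalonate kinase, had 416, 627 and 670 at T24 and 503, 761 and 883 at T20, a log2 difference of -0.29 ± 0.08 (SE, n = 3 pairs; adjusted p = 0.243, limma). Every pair was lower, and the groups overlapped. Cyp51 differed by -0.18, Nsdhl by -0.28 and Fdps by -0.24. The pemafibrate libraries also had 25 of 25 negative differences, with a median of -0.15.

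Proteasome genes had negative differences for 30 of 30, with a median of -0.11, and 27 were lower in 3 of 3 pairs. Psma7, a core particle subunit, had 2968, 3508 and 3622 at T24 and 3594, 3976 and 4220 at T20, a log2 difference of -0.20 ± 0.05 (SE, n = 3 pairs; adjusted p = 0.243, limma). Nuclear genes of oxidative phosphorylation had 29 of 30 negative differences, with a median of -0.11, among them Ndufb8 at -0.17 and Cox4i1 at -0.16. Ribosomal protein genes had 25 of 30, with a median of -0.09, and 15 were lower in 3 of 3 pairs. Their medians by pair were -0.15, 0.0009 and -0.12, so pair 2 did not lean. Transcript length moved with the differences in pairs 1 and 3 but not in pair 2. With the genes tested ordered by length in 5 bins of 2650, the fitted median was -0.03 in the bin of shortest transcripts and 0.02 in the bin of longest. The medians of these bins were -0.04 and 0.03 in pair 1, -0.003 and -0.001 in pair 2, and -0.05 and 0.04 in pair 3. Of the nuclear oxidative phosphorylation genes 18 of 30, of the ribosomal protein genes 16 of 30 and of the proteasome genes 8 of 30 were in the shortest bin, and the part of length in these values was not tested.

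Mitochondrially encoded genes had positive differences for 13 of 13, with a median of 0.18, and 12 were higher in 3 of 3 pairs. mt-Nd4l, a subunit of complex I, had 14385, 14241 and 13856 at T24 and 12298, 12620 and 11836 at T20. All T24 libraries were above all T20 libraries, and the log2 difference was 0.23 ± 0.05 (SE, n = 3 pairs; adjusted p = 0.212, limma). In pemafibrate cells 10 of the 13 had positive differences, with a median of 0.07 and 1 higher in 3 of 3 pairs, beside 19.4% of all genes in those cells.

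Glycolysis genes had negative differences for 17 of 20, with a median of -0.15, among them Pfkp, a phosphofructokinase gene, at -0.37, Pdk1 at -0.32 and Tpi1 at -0.22. NRF2 targets, the antioxidant genes, had 18 of 20, with a median of -0.16. Their medians by pair were -0.04, -0.21 and -0.27. Without replicate 1 their median was -0.21, and 6 were lower at an adjusted p under 0.05 (limma), beside 1.19% of all genes. Gsta1, a glutathione transferase gene whose paralogs could share its reads, had 103, 19.9 and 123 at T24 and 171, 97.8 and 424 at T20, a log2 difference of -1.56 ± 0.27 (SE, n = 3 pairs; adjusted p = 0.202, limma). The pairs were -0.71, -2.22 and -1.75, and the groups overlapped. Ftl1 (-0.30), Tkt (-0.25) and Srxn1 (-0.25) also had negative differences. Heat shock genes had 17 of 21 negative differences, with a median of -0.09 (-0.06 without replicate 1 and -0.14 without replicate 2). The list also held Rbm3, at -0.23, an RNA-binding protein gene known for its induction by cold. It is thus not an example of the genes induced by heat.

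**Figure D4:**
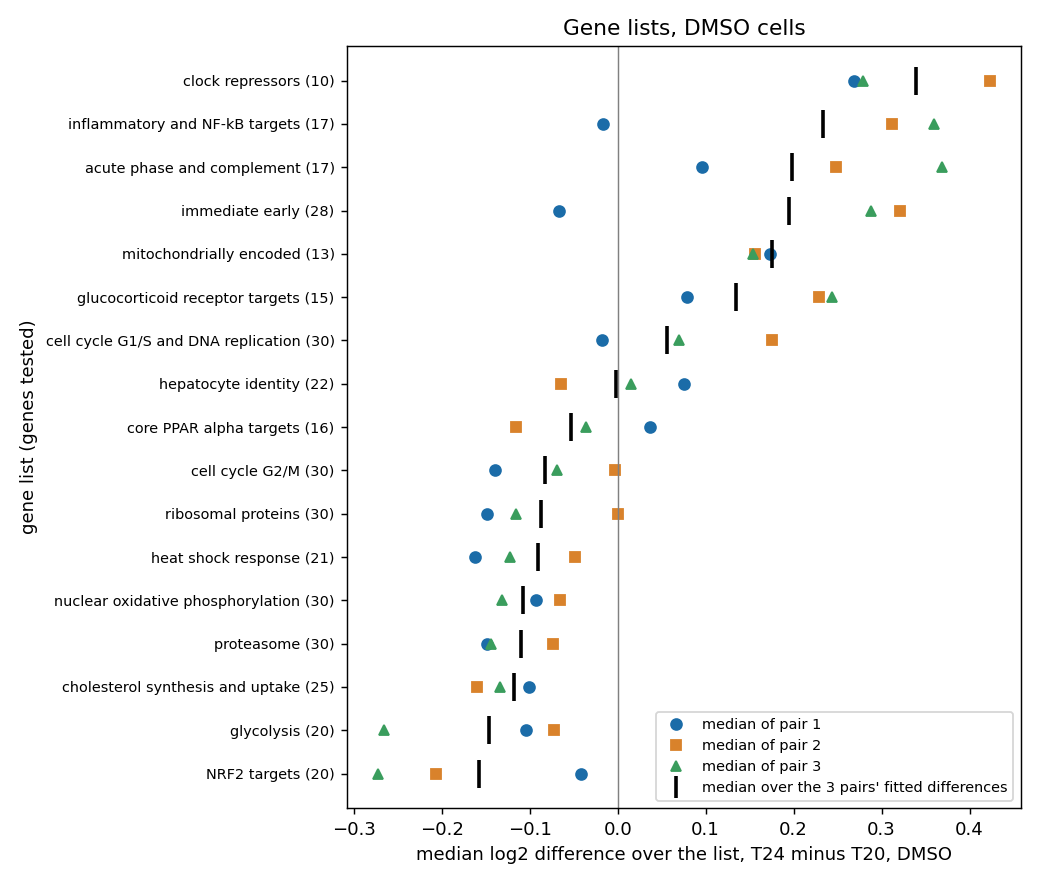
Median log2 difference, T24 minus T20, in DMSO cells (x axis) of 17 gene lists (y axis, with the number of genes tested): bars give the median of the fitted differences and points the median within each replicate pair. Immediate early genes had -0.07 in pair 1 against 0.32 and 0.29 in pairs 2 and 3, while proteasome genes were below 0 in all 3 pairs.

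Hepatocyte identity genes were split, 11 positive and 11 negative, with a median of -0.002, which was -0.03 without replicate 1, 0.08 without replicate 2 and 0.04 without replicate 3. Trf, transferrin, had 46891, 57797 and 48061 at T24 and 39988, 45698 and 39205 at T20, a log2 difference of 0.31 ± 0.05 (SE, n = 3 pairs; adjusted p = 0.202, limma). All T24 libraries were above all T20 libraries. Krt8, an epithelial keratin, differed by -0.21 and Krt19, a keratin of bile duct cells, by -0.44. The 16 tested targets of PPAR alpha, the receptor that fibrates activate, had a median of -0.05 with 6 positive and 10 negative differences, and a median of -0.10 without replicate 1 and -0.01 without replicate 2. Acadm, an acyl-CoA dehydrogenase gene of fatty acid oxidation, differed by -0.25, Angptl4 by -0.31 and Plin2, a lipid droplet protein gene, by 0.21.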

How the data were processed

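Messenger RNA was enriched on oligo(dT) beads and made into strand-specific (dUTP) libraries, per the labels' protocols. The authors deposited 1 table per exposure window with 35551 genes, and the values are normalized signal (estimated counts scaled by the authors), per the file headers; for the quantifier's version, the genome build and the annotation, nothing was given in the sources used here. The 3 tables were normalized separately, so the median log2 difference over genes with a mean of at least 10 was subtracted (-0.02 for DMSO). Groups and replicate numbers came from the labels. Tests used limma 3.58.1 in R 4.3.3 on log2(signal + 1), with a variance trend and the replicate number as a block, over genes with a mean of at least 10, and Benjamini-Hochberg adjustment at 0.05; folds on this scale understate low genes. The block was kept because same-numbered libraries deviated together (correlations of 0.36, 0.32 and 0.40 in DMSO cells). Correlations between different numbers were -0.29 to -0.09. Deviations were taken from each group's mean, so positive values for the same number force negative ones between different numbers, which add no further evidence. The fit was tested on simulated data. Members and the 40 gene lists were chosen with earlier results of these data known. Named genes are the largest called differences with a mean of at least 50, all measured clock genes, and up to 4 genes of smallest p per other list; those described were picked from these with values in view, and some are not reported here. The closing section gives the effect of the alternatives tried (scaling, pseudocount, filter, block, variance model, left-out replicates). Median transcript lengths from GENCODE vM21 matched 99.8% of the genes tested.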

Additional observations from a re-analysis of the deposited data

How the results depend on the processing

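With 1 choice changed at a time, the 75 genes followed kept the sign of their DMSO difference in each of the 1274 values. These came from the 17 alternatives run, where Ciart was not tested at a minimum mean of 50. Alternatives that changed only the filter, the block, the variance model, the libraries sharing the spread or a minimum fold left each difference as it was. Their signs were therefore fixed in advance. Among DMSO calls (3 with all settings as described), 0 remained with no filter, with no variance trend and when all 9 DMSO libraries shared the spread, and 1 when DMSO and pemafibrate libraries were averaged within harvest and replicate number, an alternative chosen after seeing the data. Leaving out 1 replicate gave 0 to 437 DMSO calls, 2 to 383 pemafibrate calls and 0 to 2 calls of a difference between treatments. Pemafibrate calls, 0 as described, were 2 with a minimum mean of 50, 3 with robust variances and 9 when all 9 libraries shared the spread. With no replicate block there were 2 DMSO calls (Per2 was lost, and no other call changed), 0 pemafibrate calls and 0 calls of a difference, and 261 DMSO genes had an unadjusted p under 0.05, against 1711 with the block. The Per2 difference had adjusted p-values of 0.0583 with no centring, 0.0571 with TMM factors, 0.0502 with median-of-ratios factors and 0.0517 with upper-quartile factors. The cause of these changes was not tested. With 3 pairs, differences of the size seen in most clock genes did not pass an adjustment over all genes, which does not show that they are absent.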

Other observations

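Cell cycle genes leaned in opposite directions in DMSO cells, with no member passing the adjusted test. Genes of G1/S and DNA replication had positive differences for 26 of 30, with a median of 0.06, and genes of G2/M negative differences for 27 of 30, with a median of -0.08. Single replicates moved both: G1/S genes had 17 of 30 positive differences and a median of 0.03 without replicate 2 and a median of 0.10 without replicate 1, and G2/M genes had 20 of 30 negative differences and a median of -0.05 without replicate 1. Pole, a DNA polymerase subunit, had 3495, 2722 and 4183 at T24 and 3276, 2501 and 3915 at T20, and Cenpf, a kinetochore protein gene, had 2668, 2518 and 4343 at T24 and 2869, 3063 and 5130 at T20. In pemafibrate cells the G2/M genes had 16 of 30 negative differences. Glucocorticoid receptor targets had 11 of 15 positive differences, among them Sgk1 at 0.25 and Klf9 at 0.26. The TGF-beta target Id3 differed by -0.57 and the laminin gene Lamb3 by -0.52, neither of them past the adjusted test.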
